A study of Mus musculus with 10 samples.

Results

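The serpin family of serine protease inhibitors was examined in RNA-seq of cells sorted from mouse liver. Members were taken by name, as mouse protein-coding genes whose symbol is Serpin, a clade letter from a to i and a number, without Serpinc1, Serpind1, Serpinf2, Serping1 and Serpinh1. The values given are for 55 genes of the 29972 with a transcript in the deposited tables. The rule uses names and no measured value, though the family was chosen with earlier results of these data known. By clade, 24 belong to clade a, 26 to clade b, 2 to clade e, 1 to clade f and 2 to clade i. On the mm10 genome build 23 lie on chromosome 12, 15 on chromosome 13 and 12 on chromosome 1. The 6 Serpina1 copies, near-identical apart from Serpina1f, were summed into a Serpina1 group and the 10 Serpina3 copies into a Serpina3 group, which left 41 units.

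The series holds 10 libraries: HpC, peripheral cholangiocytes derived from hepatocytes (4 libraries), pC, ordinary peripheral cholangiocytes (3 libraries), and H, which are hepatocytes (3 libraries). Cholangiocytes line the bile ducts. The HpC mice were Alb-Cre+/-;Rbpjf/f;Hnf6f/f, at postnatal days P124, P151, P144 and P139 for HpC1 to HpC4. The pC mice were Rbpjf/f;Hnf6f/f without Cre, at P151, P119 and P142. The H mice were Alb-Cre+/-;Rbpjf/f;Hnf6f/f, with H1 at P134 and both H2 and H3 at P139. All groups carried the floxed alleles and were of mixed C57BL/6, FVB and CD1 strain. The albumin promoter drives Cre in hepatocytes and their precursors, where it acts on Rbpj, the DNA-binding factor of Notch signalling, and on Hnf6, also called Onecut1, a transcription factor of bile duct development. Because HpC mice carry Cre and pC mice do not, the origin of the cells and the genotype cannot be told apart between HpC and pC. The labels do not say that H2 and H3 came from separate animals, nor that HpC4, of the same age and genotype, came from another animal, so tests involving H may measure only the spread between samples, and HpC and H may not be independent. The title of the series names TGF-beta as the signal by which hepatocytes change into biliary cells.

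Serpins trap their target protease with a flexible reactive-centre loop, which the protease cleaves and which then snaps into the body of the inhibitor. Hepatocytes make most of the serpins of blood plasma, chiefly those of clade a, several of which have lost inhibition and carry hormones instead. Clade b serpins stay inside the cell, where they guard against the cell's own or incoming proteases.

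Values are TPM, which is corrected for transcript length and so can be compared between genes, rescaled between libraries (scaled TPM). Listed values of a group follow its library numbers. The number of reads is unknown. Libraries had 10232 to 14489 genes at 1 TPM or more. Transcripts of other organs stood out in HpC1 and HpC2: 10 exocrine pancreas markers summed to 246294 scaled TPM in HpC1, 168 in HpC3, 1066 in pC3 and at most 47.8 elsewhere, and 10 squamous epithelium markers summed to 39205 in HpC2 and at most 12.7 elsewhere. The labels were checked against markers. The 7 cholangiocyte markers summed to 1513 to 2522 scaled TPM in HpC, 5181 to 5414 in pC and 30.8 to 43.0 in H. The 7 hepatocyte markers summed to 2913 to 5508 in HpC, 935 to 2524 in pC and 74534 to 86640 in H. Alb made up most of this sum in every library. Transcripts of floxed Rbpj were present in every group (4.09 to 6.23 in HpC, 5.51 to 6.82 in pC, 1.20 to 1.59 in H), as were those of Onecut1 (19.3 to 46.2 in HpC, 63.0 to 81.9 in pC, 46.0 to 109 in H). These are sums over whole transcripts and do not check the deletion.

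Together the 55 genes took 0.126% to 0.191% of the deposited TPM in HpC, 0.0660% to 0.0847% in pC and 1.12% to 1.24% in H. Clade a summed to 559 to 1437.5 scaled TPM in HpC, 240.0 to 349 in pC and 20371 to 21311 in H. Clade b summed to 202 to 490.3 in HpC, 171 to 193 in pC and 15.5 to 20.6 in H; the highest HpC value was that of HpC2, and the other HpC libraries stood at 202 to 219. Clade a thus outweighed clade b in every library, by far more in hepatocytes than in either cholangiocyte group. In bulk samples such as these, fewer cells of a type and less RNA per cell cannot be told apart.

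Of the 41 units, 13 reached 1 TPM in at least 3 libraries and were tested among 14755 genes, at a 5% false discovery rate in limma. The tested units are 7 of clade a, 5 of clade b and Serpinf1. In HpC against pC, 3 of the 13 were higher and 0 lower, where 1.99% of all tested genes were higher and 2.56% lower (4.55% in either direction); at an unadjusted p below 0.05, 5 were higher and 0 lower. In HpC against H, 3 were higher and 8 lower, where 30.6% of all genes were higher and 29.2% lower (59.9% in either direction); on TPM as deposited 4 were higher and 5 lower. In pC against H, 3 were higher and 9 lower, against 31.1% and 28.5% of all genes (59.7% in either direction). The median log2 fold change of the 13 was 0.69 for HpC against pC, -1.78 for HpC against H and -4.17 for pC against H, beside -0.01, 0.08 and 0.11 over all tested genes. Serpina12 passed the filter through H alone, which fixed its difference from H; without it, 7 of 12 were lower in HpC and 8 of 12 in pC than in H, and the medians against H were -1.52 in HpC and -2.94 in pC. Serpinb6b, 1 of the 3 higher than H, passed through HpC and pC, with 0 H libraries at 1 TPM. The comparisons between groups share libraries pairwise and are not independent of each other.

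**Figure D1:**
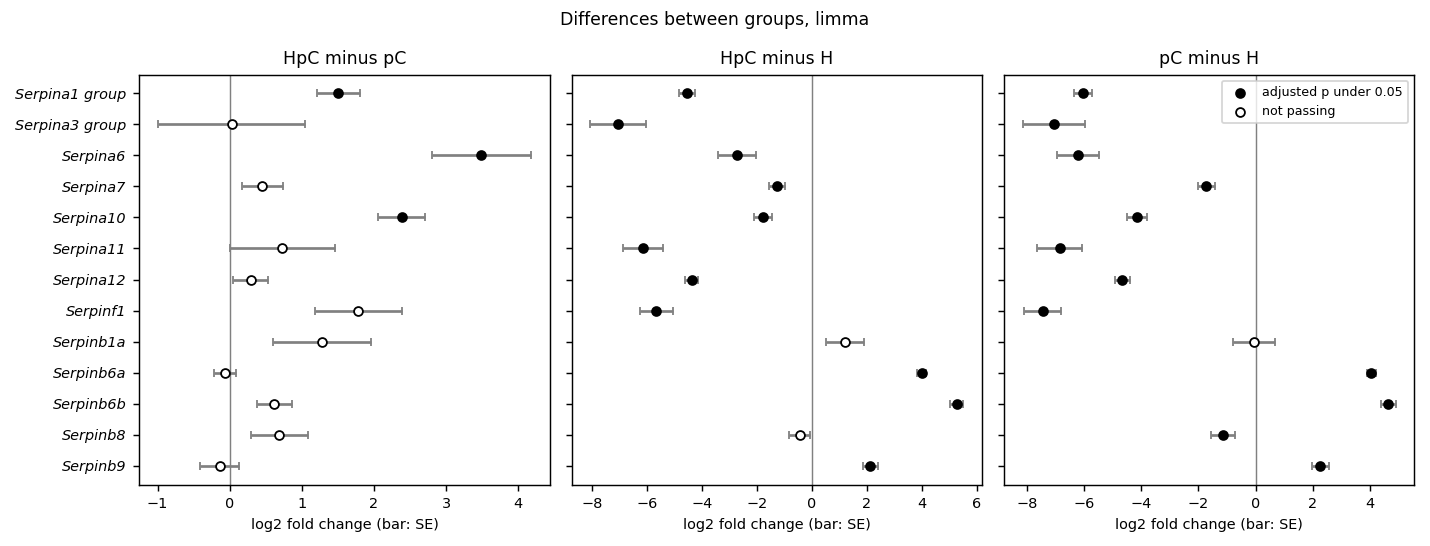
Log2 fold change (x axis, on the log2(scaled TPM + 1) scale) of the 13 tested serpins (y axis) in HpC minus pC, HpC minus H and pC minus H; points are limma estimates, bars are standard errors, and filled points have an adjusted p under 0.05. Left, the filled points are the Serpina1 group, Serpina6 and Serpina10, all above 0; in the other panels clade a and Serpinf1 lie left of 0 and Serpinb6a, Serpinb6b and Serpinb9 right of it. Serpina12 passed the filter on low values through H alone, which fixed its difference from H. Serpinb6b passed through HpC and pC, with 0 H libraries at 1 TPM.

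Among the secreted hormone carriers, Serpina6 showed the widest gap between the cholangiocyte groups. It encodes corticosteroid-binding globulin, which carries glucocorticoids in plasma and is no longer an inhibitor (ENSMUSG00000060807, mm10 chr12:103646630-103657212, minus strand). It stood at 89.5, 58.0, 72.3 and 34.2 scaled TPM in HpC, at 7.22, 14.1 and 0.293 in pC, and at 362, 378 and 468 in H. No group overlapped another: every HpC library lay above every pC library and below every H library. The log2 fold change was 3.49 ± 0.69 (SE) for HpC against pC (limma adjusted p = 0.0191) and -2.72 ± 0.69 for HpC against H (adjusted p = 0.00633), and pC lay below H by -6.21 ± 0.74 (adjusted p = 4.57e-05). The HpC mean was 8.82 times that of pC and 15.8% of that of H. The first call was lost without HpC3 (adjusted p = 0.0537) and with HpC1 and HpC2 left out (adjusted p = 0.108), with log2 fold changes of 3.38 and 3.28, and with a pseudocount of 0.1 (adjusted p = 0.0566). The second was lost on TPM as deposited (-1.59, adjusted p = 0.0540). The other hormone carrier, Serpina7 or thyroxine-binding globulin, which lies on the X chromosome, was low throughout. It stood at 0.917, 0.844, 1.49 and 1.62 scaled TPM in HpC, at 0.318, 0.548 and 1.02 in pC and at 2.33, 6.32 and 5.01 in H. HpC and pC overlapped and did not differ beyond the spread (0.45 ± 0.28, limma adjusted p = 0.453). Both lay below H, by -1.26 ± 0.28 for HpC (adjusted p = 0.00310) and -1.72 ± 0.30 for pC (adjusted p = 0.000711), though neither call held on TPM as deposited (adjusted p = 0.317 and 0.0834).

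Serpina10 encodes the protein Z-dependent protease inhibitor, which blocks activated coagulation factor X in plasma (ENSMUSG00000061947, mm10 chr12:103614786-103631444, minus strand). Its values were 50.1, 37.6, 41.0 and 30.4 scaled TPM in HpC, 8.84, 10.3 and 3.11 in pC, and 158, 143.6 and 114 in H. The 3 groups were again fully separate, with HpC in the middle and closer to H than to pC on the log scale. HpC exceeded pC with a log2 fold change of 2.38 ± 0.33 (SE; limma adjusted p = 0.00334) and lay below H by -1.78 ± 0.33 (adjusted p = 0.000864), and pC lay below H by -4.17 ± 0.35 (adjusted p = 3.72e-06). Without HpC1 and HpC2 the difference from pC was 2.28 (adjusted p = 0.0254). It passed under every alternative, whereas the difference from H did not pass on TPM as deposited (-0.66, adjusted p = 0.138).

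The Serpina1 group encodes alpha-1-antitrypsin, the plasma inhibitor of neutrophil elastase, and was the most abundant serpin in every library. It stood at 1184, 534, 916 and 489.6 scaled TPM in HpC, at 267, 275 and 229 in pC, and at 15932, 17472 and 17349 in H. The lowest HpC library lay above the highest pC library, and all were far below H. HpC exceeded pC by 1.51 ± 0.30 (SE; limma adjusted p = 0.0185), a ratio of means of 3.04. HpC lay below H by -4.53 ± 0.30 (adjusted p = 6.95e-07) and pC below H by -6.04 ± 0.32 (adjusted p = 2.03e-07). The call against pC was close to the threshold: it was lost on leaving out HpC3 or any 1 of the pC libraries (adjusted p = 0.0556 to 0.0734), on TPM as deposited (1.08, adjusted p = 0.0671) and without the filter on low values (adjusted p = 0.0647). It held without HpC1 and HpC2 (1.42, adjusted p = 0.0248).

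The separate Serpina1 copies, apart from Serpina1f, are nearly the same gene. Over their 1239 coding bases the 5 copies expressed in liver were 96.3% to 98.5% identical in pairs, with 86 variable positions (6.94%). The reactive-centre loop, where an inhibitor meets its protease, was more variable than the coding sequence as a whole, with 13 of 66 bases (19.7%), and is shown for that reason. The loop spans codons 361 to 382, and capitals mark the bases that vary among the 5 copies (mm10, minus strand, 5′ to 3′, from the GENCODE M21 transcripts).
Serpina1a, chr12:103853771-103853836: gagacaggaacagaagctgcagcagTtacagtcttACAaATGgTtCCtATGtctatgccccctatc
Serpina1b, chr12:103728338-103728403: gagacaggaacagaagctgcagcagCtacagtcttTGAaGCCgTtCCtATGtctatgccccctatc
Serpina1c, chr12:103895108-103895173: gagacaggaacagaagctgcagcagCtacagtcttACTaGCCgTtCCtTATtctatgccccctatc
Serpina1d, chr12:103763776-103763841: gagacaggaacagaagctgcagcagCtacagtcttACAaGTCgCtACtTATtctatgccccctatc
Serpina1e, chr12:103947114-103947179: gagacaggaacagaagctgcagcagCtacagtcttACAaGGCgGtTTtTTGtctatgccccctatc
Reads were 50 bases long. Of all 50-base windows of the transcripts, 79.3% in Serpina1c, 57.6% in Serpina1a, 50.9% in Serpina1d, 37.5% in Serpina1b and 34.2% in Serpina1e also occur in another gene, mostly another copy or the pseudogene Gm8893. The annotated span of Serpina1b also encloses Serpina1d. Values of a copy are therefore the authors' assignment of shared reads and uncertain.

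With that limit, assigned Serpina1c took 25.5%, 19.1%, 24.5% and 31.7% of Serpina1 TPM in HpC, 35.5%, 41.5% and 72.9% in pC, and 23.0%, 23.0% and 21.5% in H. Every pC library thus lay above every HpC and H library in this share. As genes of their own in the same test, Serpina1a (2.45 ± 0.47, limma adjusted p = 0.0165) and Serpina1b (2.18 ± 0.36, adjusted p = 0.00801) were higher in HpC than in pC. Serpina1c (0.57 ± 0.34, adjusted p = 0.425), Serpina1d (1.40 ± 0.67, adjusted p = 0.310) and Serpina1e (0.75 ± 0.59, adjusted p = 0.555) did not pass. Serpina1f, the remaining copy, was at most 0.130 scaled TPM in any library. The difference in share was not tested, and Serpina1c is also the copy with the highest share of ambiguous windows.

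**Figure D2:**
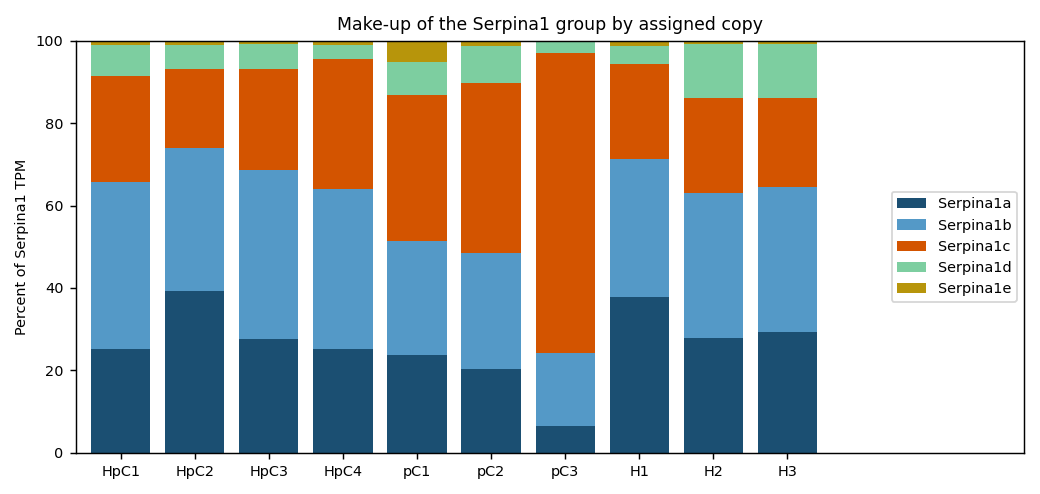
Share of each assigned copy in the Serpina1 TPM (y axis, percent) in each of the 10 libraries (x axis); Serpina1f, at most 0.03%, is not drawn. Serpina1c takes 19.1% to 31.7% in HpC, 35.5% to 72.9% in pC and 21.5% to 23.0% in H.

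The promoters of these copies differ at a possible binding site of HNF6, the factor whose gene carries floxed alleles in these mice, and are shown for that reason. Promoter entries (250 bases before to 50 after the start, RefSeq, GRCm38.p6) existed for 48 of the 55 genes, but not for Serpina6 or Serpina10. The HNF6 core ATTGAT, searched on both strands, occurred in the promoters of Serpina1b, Serpina1d and Serpina1e and not in those of Serpina1a and Serpina1c. In the aligned windows, capitals mark the core (minus strand, 5′ to 3′).
Serpina1a, chr12:103863744-103863779: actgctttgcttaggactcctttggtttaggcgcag
Serpina1b, chr12:103738321-103738356: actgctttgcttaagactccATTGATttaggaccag
Serpina1c, chr12:103905081-103905116: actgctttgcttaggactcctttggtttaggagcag
Serpina1d and Serpina1e hold the same letters as Serpina1b in this window. The core occurred in 9 of 57 member promoters and in 7.54% of all 32851 promoters. The HNF1 core GTTAAT, part of the site of the hepatocyte and biliary factors HNF1, occurred in the promoters of all 5 copies and in 12 of 57 member promoters, beside 7.10% of all promoters. The RBPJ core TGGGAA occurred in 16 of 57, beside 25.6% of all, and in none of the Serpina1 promoters. Member promoters are not independent of each other. The 5 Serpina1 copies hold only 2 distinct windows at the HNF1 core, and Serpina7 is counted through overlapping entries. The shares were not tested against those of all promoters. All matches are letters only, and binding of HNF6 was not tested. Of the copies called higher in HpC than in pC, Serpina1b holds the HNF6 core and Serpina1a does not. The values of these copies rest on shared reads.

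The Serpina3 group, relatives of antichymotrypsin, was the next most abundant serpin of hepatocytes and did not follow Serpina1. It stood at 105, 19.9, 40.8 and 2.39 scaled TPM in HpC, at 35.8, 46.2 and 6.25 in pC, and at 3507, 3133 and 2775 in H. HpC and pC overlapped fully, with a wide spread inside each (0.03 ± 1.02, limma adjusted p = 0.994), so a difference of several fold could have gone undetected. The group lay below H in HpC (-7.04 ± 1.02, adjusted p = 0.000181) and in pC (-7.07 ± 1.09, adjusted p = 0.000289). Serpina3k made up 71.9% to 76.5% of the group in H, 31.6% to 81.1% in HpC and 34.5% to 80.9% in pC. Copies of this group share 0.056% to 19.1% of their windows with other genes, and Serpina3k and Serpina3m start at the same annotated base. Serpina3i, named here after its values were seen, stood at 1.75, 7.11, 1.72 and 0.399 scaled TPM in HpC, at 0.155, 0.132 and 0.104 in pC and at 0.0843, 0.0624 and 0 in H. All HpC libraries lay above all others, but the gene passed the filter on low values through HpC alone, so no test of it is given. A transcript annotated as a retained intron (ENSMUST00000109960) held 75.2% to 93.2% of its TPM in HpC.

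Serpina11, a secreted serpin of little known function, Serpina12, or vaspin, a kallikrein inhibitor made by fat and liver, and Serpinf1, or pigment epithelium-derived factor, a secreted anti-angiogenic protein that does not inhibit proteases, were hepatocyte genes here. Serpinf1 stood at 59.7, 17.3, 18.7 and 8.66 scaled TPM in HpC, at 6.03, 11.3 and 1.80 in pC, and at 895, 1185 and 1210 in H. HpC4 lay below pC2, so HpC and pC overlapped, and the difference did not pass (1.78 ± 0.61, limma adjusted p = 0.149). Serpina11 stood at 6.93, 0.546, 6.45 and 0.1804 in HpC, at 1.07, 2.55 and 0.000957 in pC, and at 371, 154 and 202 in H. Its HpC and pC values overlapped and spread widely (0.73 ± 0.73, adjusted p = 0.654), and 35.7% of its windows also occur in the gene Gm28577. Serpina12 stood at 0.473, 0.118, 0.779 and 0.130 in HpC, at 0.0475, 0.238 and 0.0262 in pC, and at 38.4, 21.9 and 23.1 in H (HpC against pC 0.29 ± 0.24, adjusted p = 0.577). It passed the filter on low values through H alone, so its difference from H was fixed by the filter. Against H, the log2 fold change of Serpinf1 was -5.66 in HpC and -7.45 in pC, and that of Serpina11 was -6.14 in HpC and -6.87 in pC (limma adjusted p between 4.97e-06 and 4.42e-05). Gene values sum all annotated transcripts, coding or not. Averaged over libraries, a retained intron held 15.9% of Serpinf1 TPM and targets of nonsense-mediated decay held 21.3% and 9.96%. A processed transcript not annotated as coding held 53.0% of Serpina11 TPM.

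**Figure D3:**
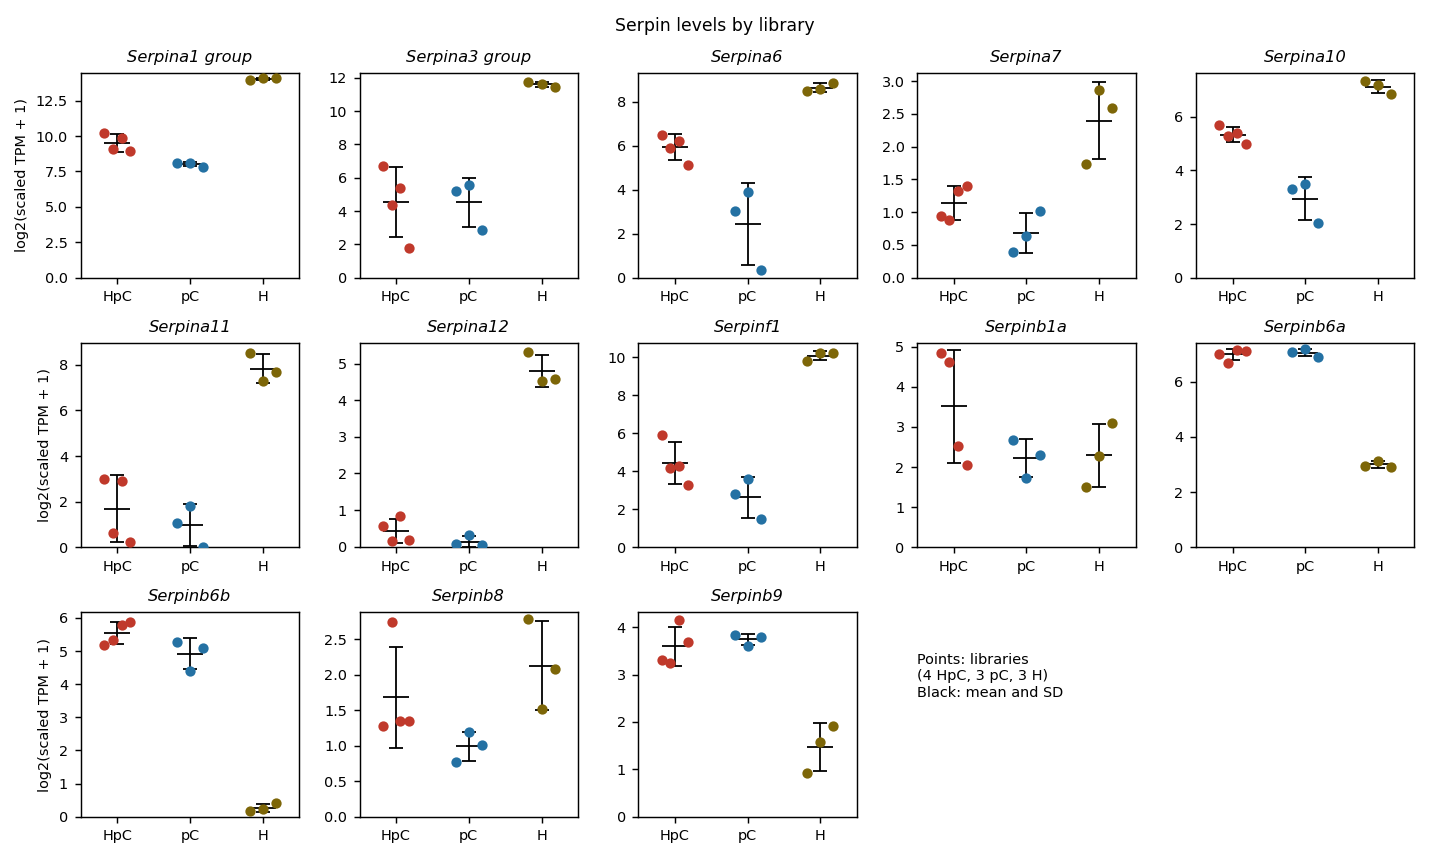
log2(scaled TPM + 1) (y axis) of the 13 tested serpins in HpC, pC and H (x axis); points are libraries, black bars the mean and SD (n = 4, 3 and 3). In Serpina6, Serpina10 and the Serpina1 group all HpC points lie above all pC points; Serpinb6a and Serpinb9 overlap between HpC and pC and lie well above H.

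How far each secreted serpin stood from hepatocytes differed between members. As a percentage of the H mean, Serpina10 stood at 36.1%, 27.2%, 29.6% and 21.9% in HpC, and at 6.38%, 7.43% and 2.25% in pC. Serpina6 stood at 22.2%, 14.39%, 17.96% and 8.50% in HpC and at 1.79%, 3.50% and 0.0727% in pC. The Serpina1 group stood at 7.0%, 3.16%, 5.41% and 2.89% in HpC and at 1.58%, 1.63% and 1.35% in pC. In each HpC library Serpina10 and Serpina6 lay above all 7 hepatocyte markers, whose highest, Alb, stood at 4.58% to 8.70%, and Serpina1 lay above 6 of the 7, all but Alb. In the pC libraries Serpina10 also lay above all 7 markers, whereas Serpina6 lay above 4, 6 and 1 of them. Serpina7, low in TPM throughout, stood at 20.2%, 18.6%, 32.8% and 35.7% in HpC and at 6.98%, 12.0% and 22.3% in pC. It lay above all 7 markers in each of these libraries. Serpinf1, Serpina11 and Serpina12 stayed below the highest marker in each of them. The Serpina3 group, at 0.0762% to 3.35% in HpC and 0.199% to 1.47% in pC, lay among the markers or below them. The median of the 7 markers stood at 0.248% to 4.41% in HpC libraries and 0.133% to 1.35% in pC libraries.

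The 7 hepatocyte markers are set beside the secreted serpins. All 7 were above 0 in every library, 0 of the 7 passed for HpC against pC in limma (lowest adjusted p = 0.0864, for Alb, 1.29 ± 0.37), and 2 were higher at an unadjusted p below 0.05. Their sum, most of it Alb, was higher in every HpC library than in any pC library. The other markers did not all follow it. In HpC4, Apoa1, Ttr, Cps1, Cyp2e1, Ass1 and Hpx all lay below both pC1 and pC2. Hpx, for example, stood at 9.85 scaled TPM in HpC4, 13.9 in pC1 and 18.5 in pC2. In HpC1 each of them lay above every pC library. The part of hepatocyte RNA in the levels of the secreted serpins was not tested.

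**Figure D4:**
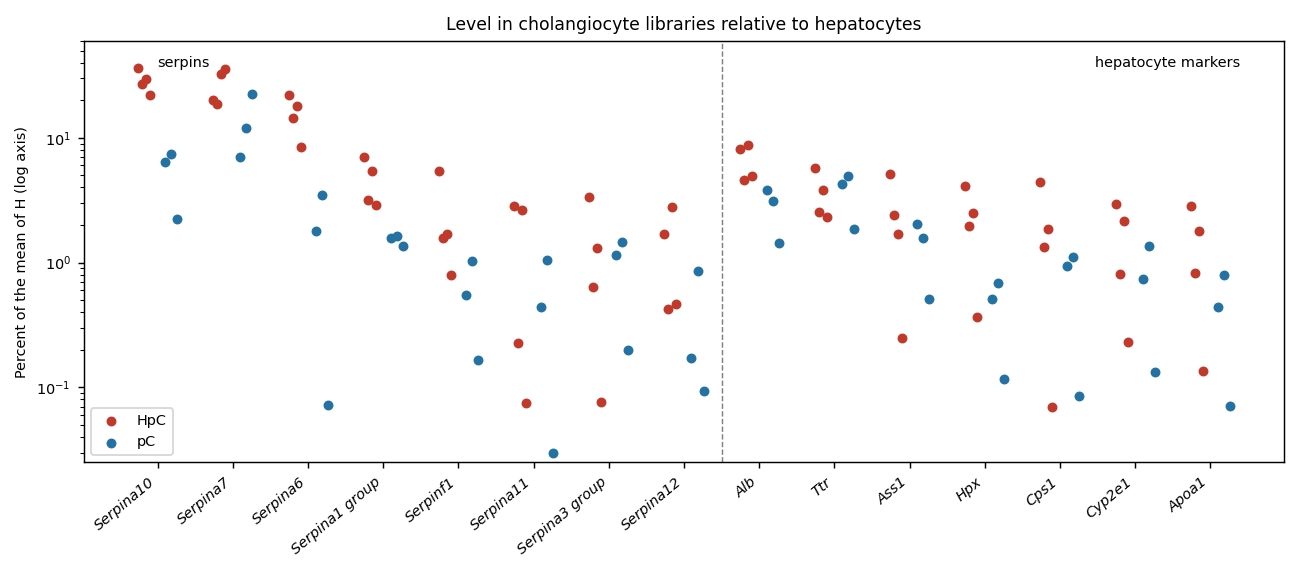
Level in each HpC and pC library as a percentage of the H mean (y axis, log scale) for 8 secreted serpins and 7 hepatocyte markers (x axis); points are libraries, and values under 0.03 are drawn at 0.03. Serpina10, Serpina7 and Serpina6 in HpC reach 8.50% to 36.1%, above the highest marker of the same library in every case. In pC, Serpina7 (6.98% to 22.3%) and Serpina10 (2.25% to 7.43%) also lie above the highest marker of the same library.

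Serpine2, or protease nexin 1, which inhibits thrombin and urokinase, stood at 2.38, 0.741, 1.16 and 0.616 scaled TPM in HpC, 0.515, 0.392 and 0.227 in pC, and at most 0.122 in H. Serpine3 was at most 0.532 in any library, and neither was tested.

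Tissue plasminogen activator and urokinase are proteases that several serpins inhibit. Plat, tissue plasminogen activator, stood at 11.1, 10.46, 19.9 and 14.03 scaled TPM in HpC, at 0.604, 0.622 and 1.35 in pC, and at 0.0701, 0 and 0 in H. Plau, urokinase, stood at 6.93, 12.8, 20.3 and 9.54 in HpC, at 1.03, 0.602 and 2.39 in pC, and at 0.263, 0.301 and 0.0614 in H. For both genes all HpC libraries lay above all others. Both passed the filter on low values through HpC alone, which fixed that they differ, so no test of them is given. The summed markers of mesothelium and of stellate cells were also above pC and H in every HpC library. The 5 mesothelial markers summed to 28.9 to 46.4 scaled TPM in HpC, 6.16 to 15.9 in pC and 0.643 to 1.37 in H, and of the 3 that did not need HpC to pass the filter, 2 (Msln and Wt1) were called higher in HpC than in pC. The 7 stellate cell and fibroblast markers summed to 23.1 to 69.8 in HpC, 13.2 to 17.4 in pC and 1.13 to 3.09 in H, and of 4 such markers 1 (Col3a1) was called higher in HpC than in pC. None of these 12 markers was at 0 in any HpC or pC library, and the part of such cells in the levels of Plat and Plau was not tested. Of a list of 10 genes set up for plasminogen activation, all tested, 7 passed the filter without needing HpC, all but Plat, Plau and Thbd. The 7 include Enpep, an aminopeptidase outside that pathway, so their counts and median are not of plasminogen activation alone. Of these 7, 1 was higher in HpC than in pC and 0 lower, beside 1.99% and 2.56% of all tested genes: Cpb2 (1.62 ± 0.26, limma adjusted p = 0.00747), a plasma carboxypeptidase that slows fibrinolysis. The median log2 fold change of the 7 was 0.40, beside -0.01 over all genes. Against H, 2 of the 7 were higher and 5 lower in both HpC and pC, where 59.9% of all genes were called in HpC and 59.7% in pC. Enpep was among the 5 lower (-1.46 ± 0.18 in HpC and -1.50 ± 0.19 in pC). Plaur, the urokinase receptor, stood at 93.2 to 278 in HpC, 84.5 to 193 in pC and at most 0.381 in H, and HpC and pC did not differ beyond the spread (0.47 ± 0.39, adjusted p = 0.577). Plg, the plasminogen that these enzymes activate, lay far below H in HpC (-6.27 ± 0.71, adjusted p = 3.01e-05) and in pC (-7.57 ± 0.76, adjusted p = 1.32e-05).

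Of the 5 tested clade b serpins, which are intracellular, 3 were higher than H in both HpC and pC. Serpinb6a (ENSMUSG00000060147, mm10 chr13:33917918-34002794, minus strand), a cytosolic inhibitor of trypsin-like proteases and cathepsin G, stood at 128, 103, 141 and 138 scaled TPM in HpC, at 135, 144.2 and 119.04 in pC, and at 6.70, 7.75 and 6.61 in H. HpC and pC overlapped closely (-0.06 ± 0.15, limma adjusted p = 0.861), and both lay far above H, by 3.99 ± 0.15 in HpC (adjusted p = 4.41e-08) and 4.06 ± 0.16 in pC (adjusted p = 5.65e-08). Of its windows 24.9% are shared with neighbouring genes such as Nqo2 and Ripk1. Serpinb6b, its relative, stood at 35.3, 39.1, 54.4 and 57.6 in HpC, at 37.7, 20.2 and 33.2 in pC, and at 0.139, 0.164 and 0.324 in H. It exceeded H by 5.27 ± 0.24 in HpC (adjusted p = 1.06e-07) and 4.66 ± 0.26 in pC (adjusted p = 2.83e-07), and its HpC and pC values overlapped (0.62 ± 0.24, adjusted p = 0.215). Serpinb6b reached 1 TPM in all 4 HpC and all 3 pC libraries and in 0 H libraries. It thus passed the filter on low values through the groups where it was high. A transcript annotated as a target of nonsense-mediated decay (ENSMUST00000017184) was its largest in HpC2, HpC4 and every pC library. Serpinb9, which protects cells from granzyme B, stood at 8.96, 8.53, 16.8 and 11.8 in HpC, at 13.2, 11.1 and 12.8 in pC, and at 0.895, 1.99 and 2.78 in H. It too exceeded H in both groups, by 2.13 ± 0.27 in HpC (adjusted p = 7.77e-05) and 2.27 ± 0.29 in pC (adjusted p = 8.29e-05), with HpC and pC overlapping (-0.14 ± 0.27, adjusted p = 0.833). Markers of Kupffer cells and macrophages were also above H: the 5 summed to 13.7 to 33.9 scaled TPM in HpC, 21.95 to 24.1 in pC and 0.344 to 0.716 in H. Csf1r made up most of this sum in every HpC library (9.63 to 24.9) and pC library (12.4 to 16.8). The markers did not move together: Csf1r was highest in HpC4, where Lyz2 (0.848) and Adgre1 (0.0114) were lowest among the HpC and pC libraries. Of the 4 tested, all were called higher than H in both HpC and pC, though Clec4f passed the filter through pC alone. Each of the 4 reached 1 TPM in 0 H libraries. None of the 5 was at 0 in any HpC or pC library. The 5 endothelial markers summed to 3.05 to 8.76 in HpC, 3.53 to 4.90 in pC and 0.528 to 0.691 in H. The part of such cells in the levels of Serpinb6a, Serpinb6b and Serpinb9 was not tested.

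The remaining tested clade b members varied between libraries. Serpinb1a, an inhibitor of neutrophil elastase and related proteases, stood at 27.5, 23.6, 4.77 and 3.18 scaled TPM in HpC, at 5.38, 2.29 and 3.94 in pC, and at 1.86, 3.85 and 7.55 in H. HpC1 and HpC2, the libraries with transcripts of other organs, were high, and HpC3 and HpC4 lay within the range of pC and H. The difference between HpC and pC was 1.28 ± 0.68 (limma adjusted p = 0.373) with all libraries and 0.10 without those 2 (adjusted p = 0.954). Serpinb8, whose human counterpart inhibits the protease furin, stood at 1.42, 5.72, 1.54 and 1.56 in HpC, at 0.714, 1.28 and 1.02 in pC, and at 5.88, 1.88 and 3.22 in H. HpC lay just above pC without overlap, but the difference did not pass (0.69 ± 0.40, adjusted p = 0.409). It was lower in pC than in H (-1.14 ± 0.42, adjusted p = 0.0398), a call lost on leaving out any 1 of the pC libraries, H1 or H3 (adjusted p = 0.0620 to 0.140), on TPM as deposited (adjusted p = 0.767) and without the filter on low values (adjusted p = 0.0825).

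Several members were high in 1 library only and were not tested. Serpini2, or pancpin, a serpin of pancreatic acinar cells, stood at 628 scaled TPM in HpC1, 0.0424, 0.126 and 0.0575 in HpC2 to HpC4, 0.0342, 0.0342 and 2.23 in pC, and at most 0.103 in H. Its values were highest in HpC1 and pC3, the libraries in which the pancreas markers were highest. In HpC2, Serpinb2, an inhibitor of urokinase, stood at 147, Serpinb5, or maspin, at 64.8, Serpinb12 at 54.0 and Serpinb3a, a squamous cell carcinoma antigen relative, at 38.4. In all other libraries these stayed at or below 0.148, 0.427, 0.0291 and 0.0581. HpC2 was also the library in which Krt5 stood at 784 and Krt14 at 428, basal keratins of squamous epithelium that were at most 0.627 elsewhere. Serpinb3c (2.70) and Serpinb3b (1.87) were above 0 in HpC2 alone, and Serpini1, or neuroserpin, was highest in HpC1 (3.83, at most 0.786 elsewhere). Of the windows of Serpinb2, 10.4% are shared with its neighbour Serpinb10, which stood at 10.7 in HpC2 and 0 elsewhere. The part of cells of other organs in these values was not tested.

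**Figure D5:**
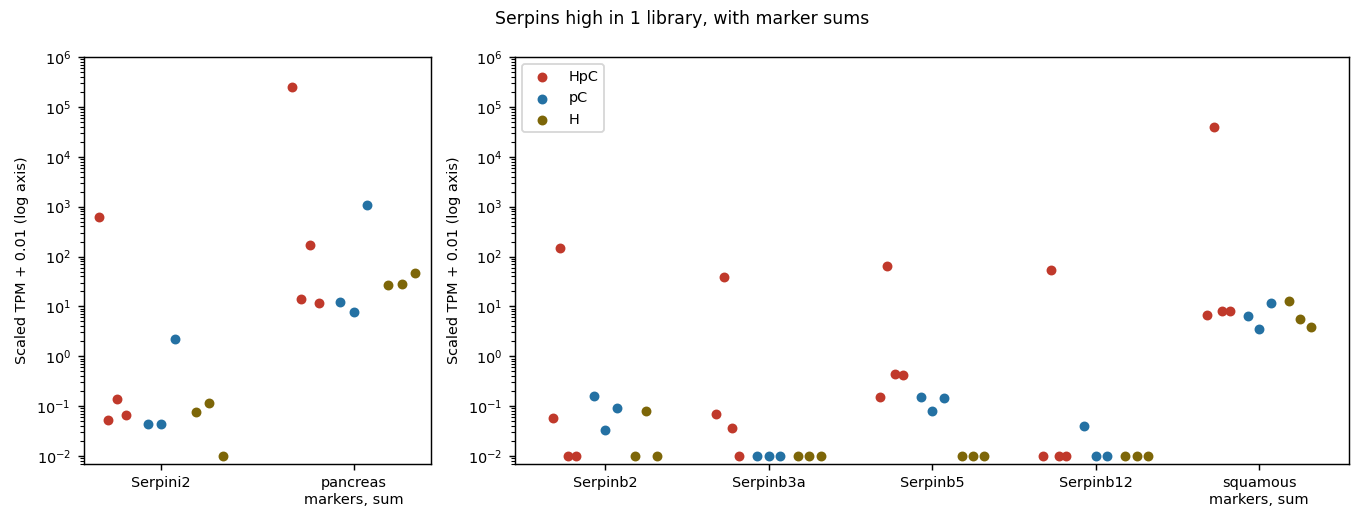
Scaled TPM + 0.01 (y axis, log scale) of Serpini2 with the sum of 10 pancreas markers (left), and of Serpinb2, Serpinb3a, Serpinb5 and Serpinb12 with the sum of 10 squamous markers (right); points are libraries, in the order of their numbers within HpC, pC and H. Serpini2 reaches 628 in HpC1, and the 4 clade b serpins reach 38.4 to 147 in HpC2, each about 152 to 1857 times the next highest library.

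The other 19 units stayed below 1 scaled TPM in every library. The highest of them were Serpina5, or protein C inhibitor, at 0.375, 0.826 and 0.755 in H and at most 0.117 in HpC and 0 in pC, and Serpine3. Serpinb9c, Serpinb9d, Serpinb9e, Serpinb9f and Serpinb9g were listed at 0 in all 10 libraries. The number of reads being unknown, no detection limit can be given for them.

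Of 15 proteases that serpins act on in textbooks, 8 were tested and 0 passed for HpC against pC in limma, with 1 higher (F2) and 0 lower at an unadjusted p below 0.05. Against H, where about as many of all genes were higher as lower (30.6% and 29.2% in HpC, 31.1% and 28.5% in pC), 3 were higher and 5 lower in both HpC and pC: Prss8, St14 and Ctss were higher (Ctss passed the filter through pC alone), and F2, Hgfac, Hpn, Ctsb and Ctsl lower. Prss8, St14 and Ctss reached 1 TPM in 0 H libraries. The neutrophil proteases Elane, Prtn3 and Ctsg, the targets of Serpina1 and Serpinb1a, stood at no more than 0.369 in any library. Of 10 genes for folding and export of antitrypsin from the endoplasmic reticulum, all tested, 0 passed for HpC against pC, also at an unadjusted p below 0.05. Against H, 0 were higher and 8 lower in HpC, and 0 higher and 9 lower in pC, beside 29.2% and 28.5% of all genes lower. Lman1, the cargo receptor that exports antitrypsin, for example, had a log2 fold change of -2.23 in HpC (limma adjusted p = 0.000123) and -2.55 in pC (adjusted p = 7.87e-05).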

How the data were processed

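RNA-seq of 10 mouse liver libraries was used: 4 HpC, 3 pC and 3 H. Per the labels' protocols, cells were sorted by FACS into extraction buffer and libraries made with a low-input kit. The authors deposited TPM for 85276 Ensembl transcripts per library; the submitters' processing notes name kallisto, DESeq and mm10, with no versions or roles. TPM sums to a fixed total, so depth is unknown and no counting error can be given.

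Transcripts were joined to genes through GENCODE M21 (mm10) and summed; 3349 did not match and held 4.22% to 9.06% of TPM. TPM was rescaled by a trimmed mean of log ratios (30% of ratios and 5% of levels trimmed at each end); factors ran from 0.668 to 1.61 in HpC, 1.53 to 1.59 in pC and 0.499 to 0.584 in H. The 14755 genes reaching 1 TPM in 3 or more libraries were tested with limma (version 3.58.1, R 4.3.3, mean-dependent prior variance) on log2(scaled TPM + 1), all libraries in a single fit, with Benjamini-Hochberg adjustment over all tested genes at 5%. All adjusted p-values are from it. Fold changes on this scale understate changes of low genes. The test was tried on simulated data. Python 3.11.15, pandas 2.3.3 and matplotlib 3.10.9 served for tables and figures.

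Ages differ within HpC and within pC; the labels name no litter or batch shared by number. Values in every library are given for members averaging at least 5 scaled TPM in a group or called in any comparison. Of the genes that the naming rule matches, 1 is not reported here. The members and companion lists were chosen with earlier results of these data known. Alternatives covered the pseudocount, filter, scaling, libraries fitted, copy grouping, prior variance, replicate block and leaving out libraries. Read-level alignment was not analysed here.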

Additional observations from a re-analysis of the deposited data

Results flagged for a closer look

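In 1 of the 13 tested units the 4 HpC values held a library standing apart from the other 3 by a gap, relative to the whole range, above Dixon's 95% critical value, which chance passes in about 1 set in 20: Serpinb8, at 5.72 scaled TPM in HpC2. The same held for 5 untested units, which were examined because 1 library raised their HpC mean to 5 or more, so that these flags follow from that choice and are not set against chance. They were Serpinb2 at 147 scaled TPM, Serpinb5 at 64.8, Serpinb12 at 54.0 and Serpinb3a at 38.4 in HpC2, and Serpini2 at 628 in HpC1. For Serpinb8 the other HpC libraries stood at 1.42 to 1.56 scaled TPM, and no change of its call for HpC against pC followed from leaving any library out.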

How the results depend on the processing

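Of 26 called fold changes, none changed sign under 18 alternatives and 7 lost the call under at least 1. The 26 include those of Serpina12 against H in HpC and in pC, which the filter on low values fixed. Counts of called serpins moved by over 1.5 times in these cases. For HpC against pC, 1 was higher in place of 3 when only the libraries of these 2 groups were fitted, where Serpina6 (adjusted p = 0.0667) and the Serpina1 group (adjusted p = 0.0547) were lost. For HpC against H, 5 were lower in place of 8 on TPM as deposited, with 4 higher in place of 3. With every copy as its own gene, 16 were lower for HpC against H and 17 for pC against H, in place of 8 and 9, because more genes were tested. Leaving out each library in turn gave 1 to 3 higher for HpC against pC (1 without HpC3) and 0 lower, 3 to 4 higher and 8 lower for HpC against H, and 3 higher and 8 to 9 lower for pC against H. TPM as deposited moves the median log2 fold change of all tested genes to -0.36 for HpC against pC, 0.87 for HpC against H and 1.20 for pC against H; over all genes 7553 were then higher and 1511 lower for HpC against H, in place of 4522 and 4309, and 9360 higher and 1247 lower for pC against H, in place of 4591 and 4212.

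Only uncalled differences changed sign. For HpC against pC, the Serpina3 group stood at -0.028 with a pseudocount of 0.1, -0.42 on TPM as deposited and -0.94 without HpC1 and HpC2; without both, Serpinb9 stood at 0.21 and Serpinb6a at 0.11. On TPM as deposited, Serpinb8 stood at 0.35 for HpC against H, and Serpinb1a at 1.13 for pC against H; Serpinb1a stood at 0.0088 there with median-ratio size factors and at 0.0042 without HpC1 and HpC2. Leaving out single libraries, the Serpina3 group ran from -0.81 to 0.96, Serpinb6a from -0.14 to 0.064 and Serpinb9 from -0.32 to 0.0051 for HpC against pC, and Serpinb1a from -0.47 to 0.33 for pC against H. The cause was not tested. Serpinb1a gained a call for HpC against H on TPM as deposited (2.05, adjusted p = 0.00348) and without HpC4 (1.69, adjusted p = 0.0412). Same-numbered libraries share only a number: their deviations correlated at -0.05 to 0.08. With the replicate number as a block, 3 serpins were higher for HpC against pC and 8 lower for pC against H, where Serpinb8 was lost (adjusted p = 0.0758). Groups of 3 or 4 libraries, unknown depth and shared reads between copies limit all values.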
